A study of Mus musculus with 30 samples.

Results

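Hippocampus and cerebral cortex of wild-type mice were compared within the COX-1 line, the mouse line from which the study's COX-1 knockout animals were also bred. The comparison used 6 of the 30 arrays in the series, 3 of hippocampus (Hippocampus COX-1 WT) and 3 of cortex (Cerebral Cortex COX-1 WT), selected by tissue and genotype and not by any measured value. All of these mice were labelled wild type and were 12 weeks of age, and no treatment is described before pentobarbital overdose, decapitation and freezing of the dissected regions. The animals had a mixed C57BL6 and 129/Ola background and came from matings between wild-type offspring of a colony kept as heterozygotes, and each COX line was kept as a colony of its own. The other 24 arrays, which set the spread of the test and served for comparison, held both regions of COX-1 KO, COX-2 WT, COX-2 KO and COX-2 Hetero mice, with 3 arrays for each region and genotype. The study had 3 mice in a group and also describes its hybridisations as done in triplicate, so p-values here measure the spread between arrays, part of which may be technical. The labels do not say which regions were hybridised together, so a hybridisation batch and the region cannot be told apart.

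The hippocampus is a folded, simply layered cortex whose pyramidal and granule neurons encode episodes and places, and its dentate gyrus goes on making neurons in adult mice. The cerebral cortex has more layers and a wider range of projection neurons, and both regions share the same glial, vascular and inhibitory cell classes in different proportions. Cyclooxygenases convert arachidonic acid, which is released from membrane phospholipids, to the precursor of prostaglandins and thromboxanes. In dissected tissue, fewer cells of a type and less RNA per cell cannot be told apart.

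Expression was measured with radiolabelled cDNA on nylon membranes spotted with mouse cDNA clones, and each value is a Z score, the natural log intensity of a spot in units of the SD over the array. A difference in Z between regions is therefore a distance in SD units and not a fold change. Only the last 8448 of the 16896 probe rows were used, because 5 of the 6 cortex arrays of the COX-1 line hold identical values in the rows before. Of these probes, 4875 had 1 gene symbol, 224 had several and 3349 had none. A probe counted as expressed when its mean Z over the 6 arrays was above 0, which left 4127 probes, 2374 of them with 1 symbol, for 2170 genes. Correlations between arrays over these rows were 0.989 to 0.994 within hippocampus, 0.98 to 0.988 within cortex and 0.965 to 0.974 between the regions, so every array resembled its own region more than the other.

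Of the 4127 expressed probes, 1263 differed between the regions at an adjusted p under 0.05 in limma (30.6%), and 1703 had an unadjusted p below that level. They divided almost evenly, with 611 higher in hippocampus (14.8%) and 652 lower (15.8%), 396 and 354 of them with 1 symbol. The differences were small: their median size among called probes was 0.182, and they ran from -0.824 to 0.525 over all expressed probes, around a median of 0.00529. In 1545 probes the 3 hippocampus arrays did not overlap the 3 cortex arrays (37.4%), and 1124 of the called probes were among these. The even division depended on the scaling: with each array centred on its median the calls were 464 higher and 797 lower, and with a running median along the row order removed they were 537 higher and 828 lower. The rule that the study states for its genotype comparisons asks for a Z test and a z ratio beyond 1.5, where the difference is divided by the SD of all genes on an array. That SD is 1 for Z scores, and in this form the rule picked 0 probes. With the SD over probes of the region differences (0.171) in its place, it picked 289 probes (7.00%), 115 higher and 174 lower, each of them also called by limma. Because the filter is set on the mean of both regions, a probe can pass through its higher region alone: 107 of the probes called higher had a cortex mean at or below 0, and 64 of those called lower had such a mean in hippocampus.

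**Figure D1:**
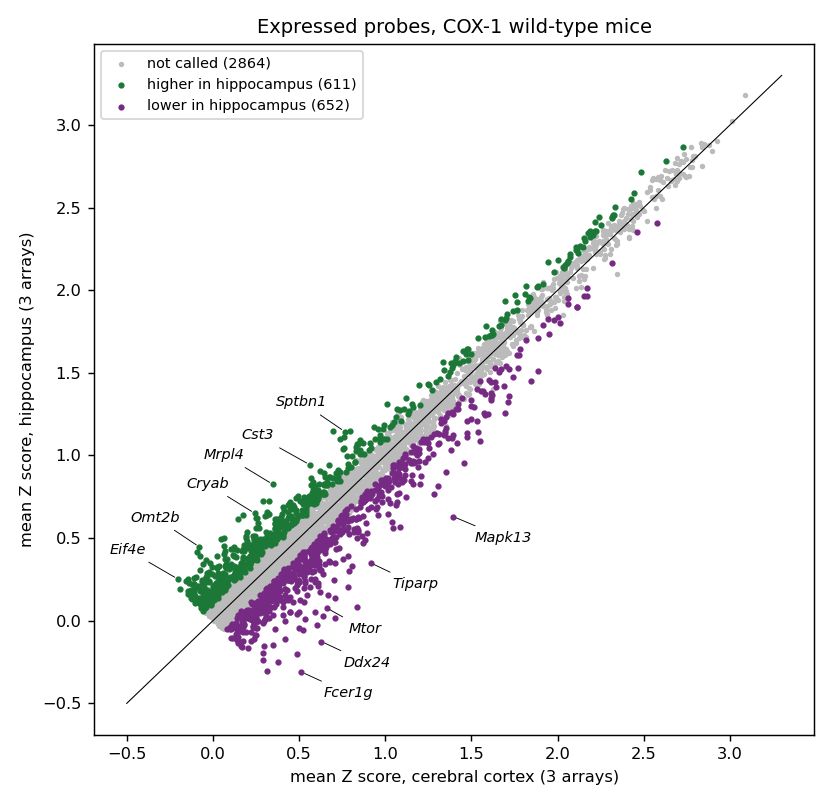
Mean Z score of each expressed probe in hippocampus (vertical axis) against cerebral cortex (horizontal axis), 3 arrays each, in wild-type mice of the COX-1 line. The 611 green probes lie above the line of equal values and the 652 purple ones below it; Fcer1g, Mapk13 and Ddx24 lie farthest below, and most called probes lie close to the line.

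Fcer1g, the gamma chain through which Fc receptors signal in microglia and other immune cells, showed the largest difference of any expressed probe. Its Z scores were -0.41, -0.366 and -0.154 in the 3 hippocampus arrays and 0.373, 0.627 and 0.542 in the 3 cortex arrays, a difference of -0.824 ± 0.116 (SE, adjusted p = 4.12e-06, limma). All hippocampus values lay below the array average and all cortex values above it. Mapk13, a p38 stress kinase, stood at 0.6, 0.677 and 0.615 in hippocampus and 1.31, 1.48 and 1.39 in cortex, a difference of -0.764 ± 0.0968 (adjusted p = 1.34e-06). It was the brightest of the 15 lowest genes, and its arrays lay far apart without overlap. The RNA helicase Ddx24 was at -0.186, -0.0821 and -0.109 against 0.53, 0.712 and 0.647 (-0.755 ± 0.104, adjusted p = 2.93e-06). Agtrap, which binds the angiotensin receptor, was at -0.0784, -0.00571 and 0.132 against 0.632, 0.754 and 0.742, and Rnf145, a ubiquitin ligase of the endoplasmic reticulum, at -0.464, -0.183 and 0.0421 against 0.352, 0.525 and 0.588. Their differences were -0.694 and -0.69, and the hippocampus values of Rnf145 were the most scattered of the 5 (SD 0.254, n = 3).

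Several of the next genes are regulators of growth, adhesion and chromosome structure. Mtor, the kinase that couples nutrients to growth, had Z scores of 0.244, -0.00376 and -0.00894 in hippocampus and 0.688, 0.646 and 0.648 in cortex, a difference of -0.583 ± 0.0789 (adjusted p = 2.62e-06). Its first hippocampus array lay above the other two, yet still well below the cortex arrays. Ctnnd1, the p120 catenin that holds cadherins at the membrane, was at 0.173, 0.142 and 0.105 against 0.795, 0.694 and 0.638 (-0.569 ± 0.0621, adjusted p = 1.9e-07), with tight values in both regions. Nipbl, which loads cohesin onto chromosomes, was at 0.0445, -0.0714 and -0.14 against 0.609, 0.513 and 0.44 (-0.576), and its other expressed probe was also lower (-0.131). The remaining genes of the 15 lowest were Nudcd2 (-0.629), the vitamin K-dependent membrane protein Prrg4 (-0.612), the ADP-ribosyltransferase Tiparp (-0.568), the pseudokinase Trib2 (-0.546), Zfand6 (-0.54), the Golgi GTPase Arf3 (-0.533) and the calcium buffer Calb1 (-0.526). No overlap between the regions was a condition of the choice of these 15 and of the 15 highest.

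On the other side, Omt2b, a gene known from oocytes, had the highest difference. Its Z scores were 0.57, 0.382 and 0.388 in hippocampus and -0.000253, -0.146 and -0.0893 in cortex, a difference of 0.525 ± 0.0622 (adjusted p = 7.65e-07). Its cortex arrays lay at or just under the array average. The zinc finger protein gene Zfp277 was at 0.59, 0.347 and 0.312 against -0.147, -0.0493 and -0.0863 (0.51 ± 0.0786, adjusted p = 1.16e-05). Mrpl4, a protein of the mitochondrial ribosome, was at 0.859, 0.787 and 0.831 against 0.331, 0.343 and 0.367, with an SD of 0.036 in hippocampus and 0.0185 in cortex (n = 3 each), so its difference of 0.479 was many times the spread within either region. Eif4e, which binds the mRNA cap at the start of translation, was at 0.29, 0.223 and 0.245 against -0.216, -0.171 and -0.223 (0.456 ± 0.0482, adjusted p = 1.24e-07). All hippocampus values were above the array average and all cortex values below it.

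Other genes of the 15 highest have known roles in brain cells. Cryab, a small heat shock protein abundant in oligodendrocytes and astrocytes, was at 0.786, 0.545 and 0.621 in hippocampus and 0.211, 0.212 and 0.303 in cortex (0.409 ± 0.056, adjusted p = 2.93e-06). Cst3, the secreted protease inhibitor cystatin C, was at 0.918, 0.974 and 0.94 against 0.634, 0.687 and 0.365 (0.382 ± 0.0715, adjusted p = 0.000143). The third cortex array of Cst3 lay well under the other two, while the hippocampus arrays lay close together. Ppp3ca, the catalytic subunit of the calcium-dependent phosphatase calcineurin, was at 0.229, 0.273 and 0.225 against -0.162, -0.0139 and -0.291 (0.398 ± 0.054, adjusted p = 2.67e-06), and Sptbn1, a beta-spectrin of the membrane skeleton, at 1.16, 1.12 and 1.16 against 0.728, 0.731 and 0.834 (0.38 ± 0.0429). For both genes a second expressed probe was not called (0.0221 for Ppp3ca and -0.0223 for Sptbn1). The others were the collagen gene Col6a5 (0.468), Vwa8 (0.41), Speer4cos (0.4), the DNA helicase Brip1 (0.399), Mlf2 (0.396), the growth factor Hdgf (0.388) and Galt, an enzyme of galactose breakdown (0.377). In Col6a5 the second cortex array (-0.119) lay far under the other two, and Mlf2 had 1 low cortex array as well.

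**Figure D2:**
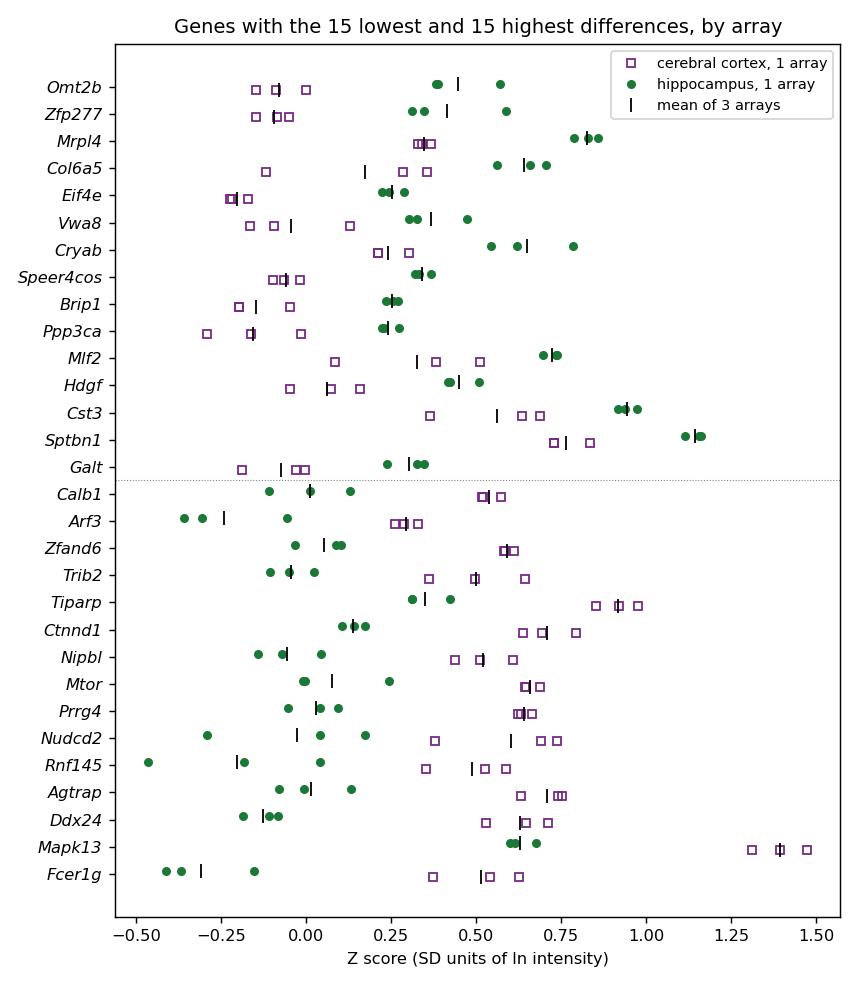
Z score of each array (horizontal axis, SD units of ln intensity) for the genes with the 15 highest (upper block) and 15 lowest (lower block) differences; filled circles are hippocampus arrays, open squares cortex arrays, and ticks the means of 3. The genes were chosen for circles and squares that lie apart; the gap is wide in Mapk13 and Ddx24, and the scatter within a region is large in Rnf145, Nudcd2, Col6a5 and Mlf2.

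The group means of these genes over the whole series are given as a description, since a choice by the COX-1 WT difference favours extreme COX-1 WT means. In all 15 genes lowest in hippocampus, the cortex of COX-1 WT mice had the highest mean of the 10 groups, and it lay farther from the COX-2 groups of its region than hippocampus did. Mtor was at 0.66 in COX-1 WT cortex, at 0.535 in COX-1 KO cortex and between 0.0424 and 0.217 in the 3 COX-2 cortex groups. In hippocampus it was at 0.0772 in COX-1 WT and reached 0.514 in COX-2 Hetero mice. Fcer1g was at 0.514 in COX-1 WT cortex and at 0.118 or lower in the other 9 groups. Among the 15 genes highest in hippocampus, the distance was greater in hippocampus for all but 2, and 12 had their highest mean in COX-1 WT hippocampus. Omt2b, for example, was at 0.447 there, at 0.133 in COX-1 KO hippocampus and at or below -0.158 in COX-2 hippocampus. Of the 652 probes called lower, 339 had their highest mean in COX-1 WT cortex, beside 489 of all 4127 expressed probes. The cortex lay farther from the COX-2 groups in 46.6% of those called lower. Of the 611 called higher, 370 had their highest mean in COX-1 WT hippocampus, beside 681 of all 4127. The cortex lay farther in 35.5% of those called higher and in 44.7% of all expressed probes.

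The region difference was also taken in the other 4 genotypes, whose arrays are not shared with the COX-1 WT comparison, over the same 4127 probes. In COX-1 KO mice 1158 probes were called (28.1%), in COX-2 WT mice 129 (3.13%), in COX-2 KO mice 33 (0.800%) and in COX-2 Hetero mice 638 (15.5%). Across probes, which are not independent replicates, the COX-1 WT difference correlated with that in COX-1 KO mice at r = 0.65 and in COX-2 WT mice at r = 0.436, but at -0.0213 in COX-2 KO and -0.0295 in COX-2 Hetero mice. Of the 1263 calls, 1069 had the same sign in COX-1 KO mice (84.6%) and 966 in COX-2 WT mice (76.5%), while 615 did in COX-2 KO mice (48.7%) and 695 in COX-2 Hetero mice (55.0%). With COX-1 KO mice 604 calls were shared, 592 in the same direction, which is 47.8% of the COX-1 WT calls and 52.2% of the COX-1 KO calls. With COX-2 Hetero mice 314 were shared, 159 in the same direction and 155 in opposite ones. Prrg4 ran from -0.612 in COX-1 WT to 0.581 in COX-2 Hetero mice, Mtor from -0.583 to 0.472 and Ctnnd1 from -0.569 to 0.441, all called in both with opposite signs.

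**Figure D3:**
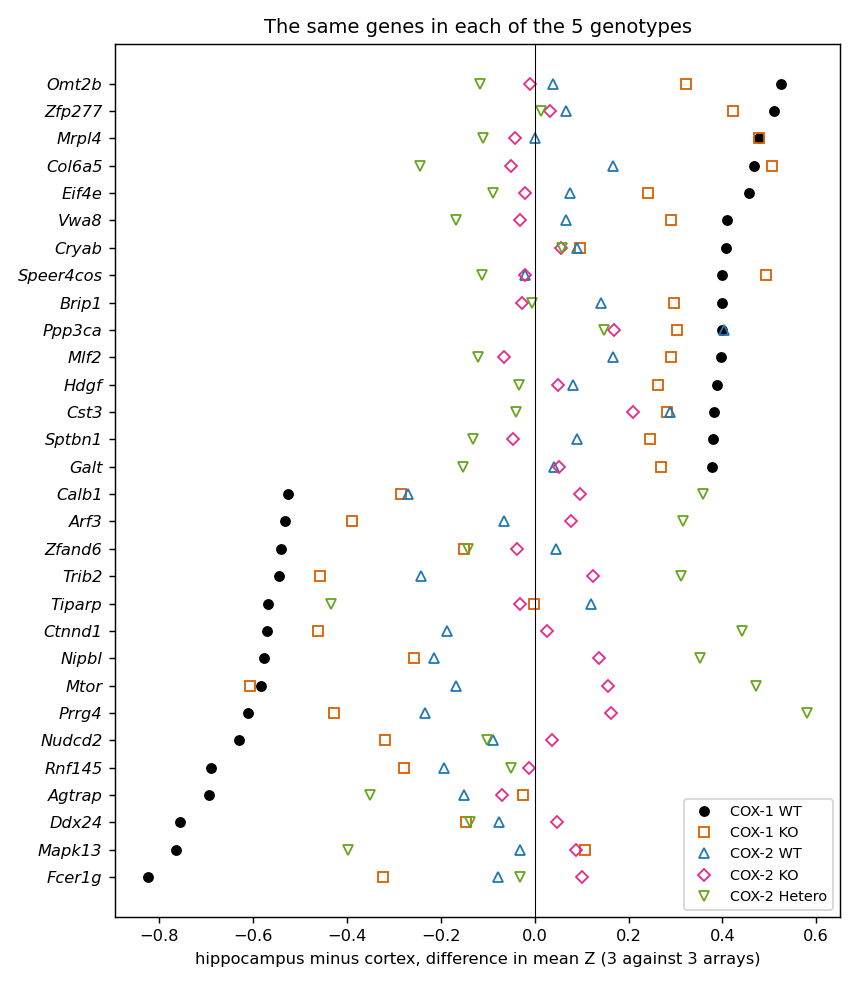
Hippocampus minus cortex difference in mean Z (horizontal axis, 3 against 3 arrays) for the 30 genes with the most extreme differences in COX-1 WT mice, in each of the 5 genotypes. COX-1 KO mice (squares) mostly lie on the same side of 0 as COX-1 WT mice (filled circles), COX-2 WT and KO mice lie nearer to 0 for most genes (Ppp3ca in COX-2 WT mice is an exception), and COX-2 Hetero mice (inverted triangles) lie on the opposite side for several genes, Prrg4, Mtor and Ctnnd1 among them.

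The difference between the wild-type groups of the COX-1 and COX-2 lines was itself tested. Of 4120 probes expressed over those 12 arrays, 259 had a region difference that differed between the lines (6.29%), 93 more positive in the COX-1 line and 166 more negative, and 933 had an unadjusted p under 0.05. The largest shift among the named genes tested was that of Fcer1g, from -0.824 in the COX-1 line to -0.0778 in the COX-2 line (adjusted p = 0.00754), followed by Mapk13 (-0.764 and -0.0323) and Tiparp (-0.568 and 0.12). Among those tested, Mrpl4 shifted most in the other direction, from 0.479 to 0.00143 (adjusted p = 0.00734). Omt2b ran from 0.525 to 0.0387 but fell under the filter over the 12 arrays and was not tested. The count of 259 fell to 151 without hippocampus array 1 of COX-1 WT and to 137 without hippocampus array 2 of COX-2 WT.

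A smaller set kept its direction throughout. Of the 1263 calls, 287 had the same sign in all 5 genotypes (22.7%), 154 higher and 133 lower, and 174 had 1 symbol; of all expressed probes, 664 had 1 sign throughout (16.1%). None was called in all 5 genotypes, 10 were called in at least 4 and 78 in at least 3. Tmsb4x, the actin-binding peptide thymosin beta 4, was at 1.02, 1.12 and 1.15 in hippocampus and 0.688, 0.804 and 0.714 in cortex of COX-1 WT mice (0.362 ± 0.0466, adjusted p = 1.53e-06). Its differences in COX-1 KO, COX-2 WT, COX-2 KO and COX-2 Hetero mice were 0.186, 0.203, 0.112 and 0.0952. Eef1a1, the elongation factor that brings tRNA to the ribosome, was at 1.08, 1.17 and 1.2 against 0.796, 0.907 and 0.689 (0.354 ± 0.0521, adjusted p = 6.97e-06), followed in the same order by 0.33, 0.245, 0.15 and 0.136. Both genes passed the test in 3 of the 5 genotypes and stayed positive in the other two. A second Eef1a1 probe differed by 0.297 in COX-1 WT mice. The called Ppp3ca probe was positive in all 5, at 0.304, 0.403, 0.169 and 0.148 in the other 4. A far brighter Ppp3ca probe did not keep its sign. It was at 0.0221 in COX-1 WT mice and at 0.144, -0.0621, -0.0321 and 0.0334 in the others.

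The probes called in at least 4 genotypes with 1 symbol were Elp2, Abhd17b and Ccnc, higher in hippocampus, and Srp68, lower; they are named because of that count, after their values were seen. Elp2, a subunit of the elongator complex that modifies tRNA, differed by 0.124 in COX-1 WT mice and by 0.153, 0.171, 0.0951 and 0.219 in the others, in the order above. Ccnc, a cyclin of the mediator kinase module, differed by 0.16, 0.263, 0.156, 0.175 and 0.0462, and Abhd17b, which removes palmitate from synaptic proteins, by 0.138, 0.228, 0.212, 0.214 and 0.0735. The cortex was the higher region in all 5 for Srp68, part of the signal recognition particle, at -0.198, -0.272, -0.276, -0.123 and -0.274. B4galt1, a galactosyltransferase of the Golgi, was lower too, at -0.235, -0.181 and -0.0622 in hippocampus and 0.131, 0.258 and 0.125 in cortex of COX-1 WT mice (-0.331 ± 0.0651, adjusted p = 0.00024) and -0.342, -0.12, -0.167 and -0.187 in the others. A brighter B4galt1 probe was at -0.0298 in COX-1 WT mice and was not called.

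The 150 bases before the transcription start are shown for 3 of the genes with 1 direction in all 5 genotypes, because these genes differed the same way in every genotype (RefSeq, GRCm38.p6, gene strand, all on the minus strand of the chromosome; capitals mark a GC box, GGGCGG or CCGCCC, in Eef1a1 and B4galt1 and an ETS site, CCGGAAG or CTTCCGG, in Tmsb4x). They lie at chr9:78481725-78481874, chrX:167209219-167209368 and chr4:40853985-40854134.
Eef1a1: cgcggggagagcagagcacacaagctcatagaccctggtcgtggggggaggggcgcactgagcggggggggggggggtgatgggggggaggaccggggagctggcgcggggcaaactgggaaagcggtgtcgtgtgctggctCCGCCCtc
Tmsb4x: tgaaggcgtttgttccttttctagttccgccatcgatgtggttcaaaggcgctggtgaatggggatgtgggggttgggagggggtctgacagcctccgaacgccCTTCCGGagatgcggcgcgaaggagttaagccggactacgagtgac
B4galt1: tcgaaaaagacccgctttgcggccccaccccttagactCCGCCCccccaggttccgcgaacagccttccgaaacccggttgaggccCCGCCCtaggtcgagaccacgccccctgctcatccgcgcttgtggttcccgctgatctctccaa
Among 27025 mouse promoters cut to this window, searched on both strands, 29.0% held a GC box, 5.68% an ETS site, 8.08% the TATA box TATAAA and 1.44% the cyclic AMP element TGACGTCA. Windows were found for 1760 of the 2170 expressed genes, with 55.1%, 13.2%, 2.95% and 2.22%. Genes called higher (315 of 386 matched) held a GC box in 52.7% and an ETS site in 15.2%, and genes called lower (289 of 350) in 54.7% and 12.1%. Both directions thus lay close to the expressed genes as a whole. Ribosomal protein genes (37 of 47 expressed) held a GC box in 32.4% (12 genes) and an ETS site in 29.7% (11 genes). Their gap from the expressed genes was not tested.

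Genes of the cytosolic ribosome, the particle that makes proteins, had the most calls in 1 direction of the gene lists described here. Of 78 expressed probes for 47 genes, 31 were higher in hippocampus and 2 lower, against 14.8% and 15.8% of all expressed probes, and 58 had a positive difference. Their median difference was 0.0762, beside 0.00529 for all expressed probes, and the mean Z over the list was 0.681, 0.705 and 0.683 in the hippocampus arrays and 0.621, 0.627 and 0.611 in the cortex arrays. The hippocampus arrays were thus all higher, by a small margin. Rps14 was at 0.599, 0.52 and 0.411 in hippocampus and 0.253, 0.266 and 0.0503 in cortex (0.32 ± 0.058, adjusted p = 9.54e-05), and Rpl6 at 0.174, 0.227 and 0.215 against -0.0429, -0.0368 and -0.0761 (0.257, adjusted p = 1.08e-05), while its second probe was not called (0.101). Rpl7 was higher on 2 of its 4 expressed probes (0.26 and 0.187). Rps6 was higher on 1 probe (0.235), whereas its other 3 were at -0.0643, -0.071 and 0.0416. The exceptions were Rpl32 (-0.181) and Rps21 (-0.166), and Rps21 missed the test without hippocampus array 2 (-0.132). In the other genotypes the medians of the 78 probes were 0.057 in COX-1 KO, 0.0705 in COX-2 WT, 0.0215 in COX-2 KO and 0.00588 in COX-2 Hetero mice, with 21, 6, 1 and 6 probes called higher and 5, 0, 0 and 4 lower. Across the alternative settings in COX-1 WT mice the median lay between 0.0569 and 0.0949, with 14 to 34 probes called higher and 2 to 6 lower. Ribosomal protein sequences have many processed copies in the mouse genome, so a spot can bind transcripts of more than its own gene.

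**Figure D4:**
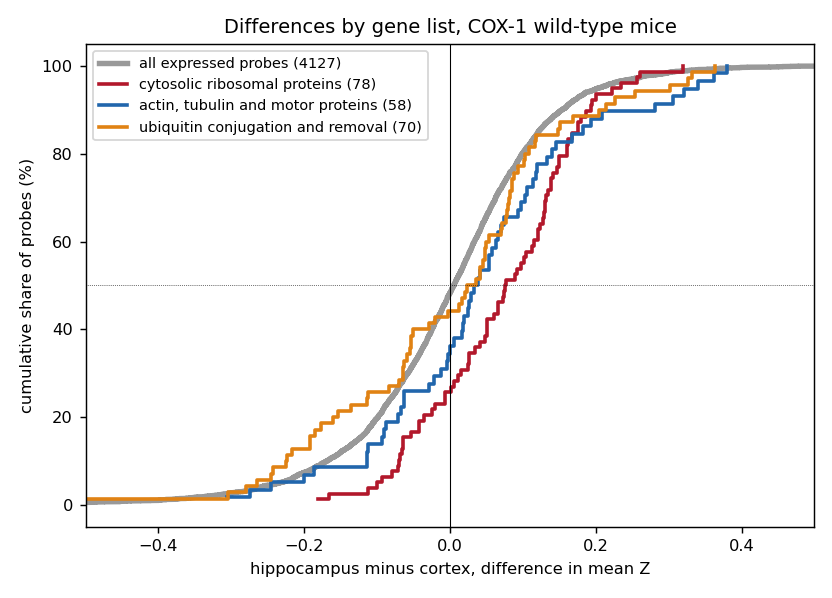
Cumulative share of probes (vertical axis, percent) by hippocampus minus cortex difference (horizontal axis, cut at 0.5 in either direction) for all expressed probes and for 3 gene lists. The curve of the 78 cytosolic ribosomal protein probes runs to the right of that of all probes, with its median at 0.0762 against 0.00529, while the ubiquitin list is wider than all probes on both sides.

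The rest of the protein synthesis genes were mixed. Of 15 expressed probes for mitochondrial ribosomal proteins, 3 were higher (20%, against 14.8% of all expressed probes) and none lower, namely Mrpl4, Mrps17 (0.201) and Mrpl16 (0.148). Mrps17 lost its call with the running median removed (0.0624), and Mrpl16 did not hold with that setting or without hippocampus array 1 or 2 or 3 or cortex array 3 (0.0634 to 0.156). Translation factors and tRNA synthetases had 5 of 23 probes higher and 3 lower (34.8% called, against 30.6%). Beside Eif4e and Eef1a1, Eif4b, which aids the unwinding of mRNA, was at 0.324, 0.191 and 0.153 in hippocampus and -0.107, -0.146 and -0.112 in cortex (0.344 ± 0.058, adjusted p = 3.74e-05). The helicase of the same cap-binding complex, Eif4a1, went the other way, at 0.692, 0.742 and 0.806 against 1.06, 1.18 and 1.13 (-0.376 ± 0.0477, adjusted p = 1.34e-06). Members of 1 complex thus differed in opposite directions. Eif4g2 was also lower (-0.122), but not without hippocampus array 2 or 3 or cortex array 1 or 3 (-0.0989 to -0.116).

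Genes that fold and degrade proteins were called in both directions. Of 22 probes for heat shock proteins and chaperones 5 were higher and 1 lower (27.3% called, against 30.6% of all expressed probes). Among the former were Fkbp1a (0.23), Dnajc10 (0.221), Fkbp9 (0.166) and Pdia6 (mean 0.326 in hippocampus and 0.166 in cortex). Hspa5, the main chaperone of the endoplasmic reticulum, was lower (-0.158). With the running median removed, Dnajc10 and Fkbp9 no longer passed (0.0737 and 0.0318). The proteasome list had 3 probes higher and 4 lower of 13 (53.8% called). Psmb5, the subunit with chymotrypsin-like activity, was at 0.593, 0.68 and 0.671 in hippocampus and 1.14, 1.01 and 0.886 in cortex (-0.367 ± 0.0645, adjusted p = 6.36e-05). Psmc1, an ATPase of the regulatory cap, was lower on both probes (-0.304 and -0.201), and the assembly factor Psmg1 was higher (0.249). Psmd10 (0.145) missed the test without hippocampus array 1 or cortex array 1 (0.106 to 0.11), Psmd7 (0.143) without hippocampus array 1 or 2 or cortex array 3 (0.122 to 0.139), and Psmg4 (-0.165) without hippocampus array 1 or 2 or cortex array 1 or 2 (-0.134 to -0.16).

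The ubiquitin list had 10 probes higher of 70 (14.3%, near the 14.8% of all expressed probes) and 17 lower, beside 15.8% of all expressed probes. In sum 38.6% of the list was called, against 30.6% of all expressed probes, and its median difference was 0.0292. Uchl1, a ubiquitin hydrolase that is among the most abundant neuronal proteins, was at 0.722, 0.595 and 0.59 in hippocampus and 0.439, 0.321 and 0.151 in cortex (0.332 ± 0.0536, adjusted p = 2.15e-05). The conjugating enzymes Ube2s (0.363) and Ube2d2a (0.326) and the ligase Rnf166 (0.301) were higher too. Lower members beside Rnf145 were the ubiquitin-like modifier Sumo2 (-0.305, and -0.15 with the running median removed, no longer called), Fbxw5 (-0.279) and Usp10 (-0.265). Usp10 did not hold without hippocampus array 1 or 2 or cortex array 3 (-0.208 to -0.267). The larger cortex values of Sumo2, 1.15, 1.13 and 1.17 against 0.774, 0.875 and 0.88 in hippocampus, did not overlap.

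Cytoskeletal genes were called higher more often than lower in COX-1 WT mice. Of 58 probes for actin, tubulin, their partners and motor proteins, 15 were higher (25.9%, against 14.8% of all expressed probes) and 5 lower, with a median difference of 0.0362. Across the alternative settings 7 to 24 were higher and 2 to 10 lower. In COX-1 KO, COX-2 WT, COX-2 KO and COX-2 Hetero mice the list medians were 0.00497, -0.00302, 0.00911 and -0.00404. There 10, 4, 0 and 3 probes were called higher and 6, 2, 0 and 7 lower. Mean Z over the list was 0.738, 0.742 and 0.755 in the hippocampus arrays and 0.711, 0.721 and 0.676 in the cortex arrays, without overlap. The tubulin Tubb5 was at 0.648, 0.652 and 0.612 against 0.334, 0.459 and 0.155 (0.321 ± 0.0527, adjusted p = 2.54e-05), tropomyosin Tpm2 at 0.4, 0.363 and 0.451 against 0.0929, 0.0612 and 0.039 (0.34), and Nefl, the light neurofilament of axons, at 0.632, 0.462 and 0.404 against 0.211, 0.251 and 0.116 (0.306). Most probes of the list were not called. Macf1, which links actin to microtubules, was lower (-0.305), as were Marcks, a membrane-bound actin regulator (-0.274), Map1lc3a (-0.246) and Dbnl (-0.201). Dbnl lost its call with the running median removed (-0.084), and Vim (0.118) lost its own there and without hippocampus array 2 or 3 or cortex array 1 or 2 (0.0447 to 0.13).

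The 57 probes for extracellular matrix and adhesion genes held 6 higher and 5 lower (19.3% called, against 30.6% of all expressed probes). Beside Col6a5, the basement membrane collagen Col4a2 was higher (0.254), and Sema3f, a repellent of growing axons, was at 0.49, 0.489 and 0.489 in hippocampus and 0.372, 0.171 and 0.456 in cortex (0.156) but missed the test without cortex array 2 (0.0754). Beside Ctnnd1, the matrix protein Sparc was lower, at 1.22, 1.22 and 1.19 against 1.47, 1.45 and 1.51 (-0.268 ± 0.0627, adjusted p = 0.00145), with both regions tight and far apart. Col18a1 (-0.212) and Itgb7 (-0.186) were lower as well. Small GTPases and their regulators had 8 probes higher and 8 lower of 51 (31.4% called, near the 30.6% of all expressed probes). Rab11a, which steers recycling endosomes, was at 0.673, 0.52 and 0.489 against 1.09, 1.07 and 0.982 (-0.486 ± 0.0477, adjusted p = 6.04e-08), and the Golgi GTPase Arl1 at 1.13, 1.02 and 1.12 against 1.62, 1.52 and 1.5 (-0.461 ± 0.0663). Arf3 and the exchange factor Dock5 (-0.307) were lower too. Rasa1 (0.242), Tbc1d10a (0.219), Rras2 (0.214) and Rab9, which acts between endosomes and the Golgi (0.202), were higher, of which Rras2 missed the test without hippocampus array 1 (0.159) and Rab9 with the running median removed (0.0846).

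Genes of the nucleus were called about as often as all expressed probes (30.6%). Splicing factors, hnRNPs and RNA helicases had 6 probes higher and 9 lower of 52 (28.8%). The splicing regulators Hnrnpul1 (0.281) and Tra2b (0.242) and the core protein Snrpd2 (0.228) were higher, and Srsf10 was lower, at 1.02, 1.11 and 1.1 against 1.39, 1.51 and 1.35 (-0.337 ± 0.0773, adjusted p = 0.00123). Dhx37 (-0.256) and Snrpg (-0.239) were lower too, and Rbm39 was higher (0.17) unless the running median was removed (0.0394). Chromatin genes had 8 of 48 probes called in each direction (33.3%). Bptf, the largest subunit of a nucleosome remodeller, was at 0.407, 0.282 and 0.218 in hippocampus and 0.826, 0.739 and 0.802 in cortex (-0.487 ± 0.0894, adjusted p = 0.000111), and the BAF complex subunits Smarcb1 (-0.39) and Smarca4 (-0.189) were lower, as was Phf20 (-0.24). A second and brighter Smarcb1 probe was called in the opposite direction (0.136), and a second Bptf probe was at -0.0107. Setd3, a member by symbol pattern alone, was higher (0.308). Hdac2 (0.235), Kdm5a (0.229) and Smarca5 (0.201) were higher too, but lost their calls with the running median removed (0.0863, 0.108 and 0.11). Smarca5 also lost its call without cortex array 3 (0.156).

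Transcription factors, general factors and mediator genes had 12 probes higher and 11 lower of 83 (27.7%, against 30.6% of all expressed probes). Zfp277 led the former, with Gtf2f2 (0.329) and Taf1d (0.301) of the general machinery and the bHLH factor Tcf3 (0.293). Meis1, a homeobox factor of developing forebrain, was at 0.253, 0.12 and 0.22 in hippocampus and 0.618, 0.588 and 0.382 in cortex (-0.332 ± 0.0619, adjusted p = 0.000134). Stat3, which carries cytokine signals to the nucleus, was lower on 1 probe (-0.287) and at 0.00771 on another. Taf1a (-0.334) and Taf12 (-0.329) were lower, but the arrays of Taf12 overlapped and it missed the test without hippocampus array 1 (-0.222).

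Genes of energy metabolism were also called in both directions. Subunits of oxidative phosphorylation, the chain that makes ATP in mitochondria, had 5 probes higher and 5 lower of 35 (28.6% called, against 30.6% of all expressed probes). Atp5mpl, a small subunit of ATP synthase, was at 0.793, 0.837 and 0.822 in hippocampus and 1.3, 1.28 and 1.34 in cortex (-0.489 ± 0.0742, adjusted p = 9.62e-06). The complex I subunits Ndufa10 (-0.445) and Ndufa12 (-0.36) were lower, while Ndufa8 of the same complex was at 0.316, 0.21 and 0.301 against -0.00676, 0.0102 and 0.108 and thus higher (0.239). Atp5g1 was higher (0.195), though not with the running median removed (0.0662). Ndufs7 (0.149) missed the test without hippocampus array 1 or 2 or cortex array 2 (0.127 to 0.137), Atp5pb (0.142) without hippocampus array 1 or 2 or cortex array 1 or 2 or 3 (0.119 to 0.155), and Cox7a2 (-0.147) without hippocampus array 1 or 2 or cortex array 2 or 3 (-0.123 to -0.146). Enzymes of glycolysis, pyruvate and the citrate cycle had 2 probes higher and 5 lower of 16 (43.8% called). Pfkm, the muscle form of phosphofructokinase that is also active in brain, was at -0.208, -0.113 and -0.145 against 0.294, 0.268 and 0.333 (-0.454 ± 0.0676, adjusted p = 7.69e-06), below the array average in every hippocampus array. Triose phosphate isomerase, Tpi1, was higher (0.151), and transketolase, Tkt, lower (-0.178). Vdac1 (0.16), Got2 (-0.155) and Pcx (-0.138) lost their calls with the running median removed (0.0964, -0.0669 and -0.0548); Vdac1 also missed the test without cortex array 3 (0.122) and Got2 without hippocampus array 3 or cortex array 3 (-0.12 to -0.137).

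Lipid genes had 3 probes higher and 3 lower of 11 (54.5% called, against 30.6% of all expressed probes). Abca1, which exports cholesterol, was higher (0.191), as was Hadha, of mitochondrial fatty acid oxidation (0.218). Hsd17b10 is a mitochondrial dehydrogenase that was also chosen for quantitative PCR in these mice. It was at 1.26, 1.37 and 1.3 in hippocampus and 1.24, 1.03 and 1.19 in cortex (0.158 ± 0.053, adjusted p = 0.0233), but not called without hippocampus array 2 or cortex array 2 (0.0943 to 0.126). Dbi, which binds acyl-CoA (-0.215, and -0.0746 with the running median removed), Acsl5 (-0.187) and Slc27a4 (-0.215) were lower, the last not without hippocampus array 3 or cortex array 2 (-0.141 to -0.195). The genes that release and process arachidonic acid, the substrate of cyclooxygenases, had 6 expressed probes, for Alox5ap, Anxa2, Pla2g4a, Ptgis, Ptger2 and Ptges3. Pla2g4a, the cytosolic phospholipase that frees arachidonic acid, was at 0.259, 0.206 and 0.156 in hippocampus and 0.0655, 0.0172 and 0.0477 in cortex (0.164 ± 0.039, adjusted p = 0.00171). Its groups did not overlap, but with the running median removed the difference was 0.0189 and no longer passed. Ptger2, a receptor for prostaglandin E2, was lower (-0.123, adjusted p = 0.0423), but missed the test without hippocampus array 1 or 3 or cortex array 1 or 2 or 3 (-0.0863 to -0.135). Neither gene was called in the other genotypes, where Pla2g4a lay between -0.00252 and 0.104.

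Of 19 probes for calcium, kinase and phosphatase signalling, 2 were higher (Ppp3ca and the casein kinase Csnk1d, 0.173) and 6 lower, beside 14.8% and 15.8% of all expressed probes. Gng2, a G protein gamma subunit, was at 1.27, 1.18 and 1.3 in hippocampus and 1.6, 1.62 and 1.57 in cortex (-0.345 ± 0.059, adjusted p = 4.47e-05). The calmodulin-dependent kinase Camk1d (-0.255, and 0.05 on a dimmer probe) and the p38 kinase Mapk14 (-0.17) were lower, like Mapk13. Mapk14 had SDs of 0.019 and 0.00781 (n = 3 each), so a small difference stood clear of the spread. Csnk1d did not hold without hippocampus array 1 or cortex array 2 (0.148 to 0.154). Of the activity-regulated genes, Ier2 was higher, at 0.159, 0.168 and 0.139 against -0.0838, -0.14 and -0.165 (0.285, adjusted p = 9.16e-06), while Trib1 (-0.277) and Btg1 (-0.135) were lower, the last not without hippocampus array 3 or cortex array 3 (-0.11 to -0.112).

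Few genes of synapses and channels were among the expressed probes. The plasma membrane calcium pump Atp2b1 was at 0.682, 0.629 and 0.614 in hippocampus and 0.947, 0.994 and 0.941 in cortex (-0.319 ± 0.0599, adjusted p = 0.000146), and the reticulum pump Atp2a2 was higher on 1 probe (0.207) and at -0.0258 on another. Spots of both pumps that did not count as expressed ran both ways. An Atp2b1 probe averaged 0.08 in hippocampus and -0.171 in cortex, and an Atp2a2 probe -0.592 and -0.385, each opposite to the called probe. A far dimmer Atp2b1 probe, at -3.54 and -3.06, was lower in hippocampus, like the called one. Of 4 postsynaptic probes 1 was called (25%, against 30.6% of all expressed probes). That was Olfm1, which was higher (0.215, and 0.119 with the running median removed, no longer called). The scaffolds Ppp1r9b (0.0901, adjusted p = 0.0898) and Homer2 (-0.0825, adjusted p = 0.155) were not called in limma. Of 9 presynaptic probes 1 passed (11.1%, against 30.6% of all expressed probes), Synj1 (0.129). It missed the test without hippocampus array 1 or 2 or 3 or cortex array 1 or 3 (0.0997 to 0.13). Scamp5 was at -0.0791 and Cltb at -0.103. The GABA transporter Slc6a13, another gene chosen for quantitative PCR, was at 1.95, 2.06 and 2.05 in hippocampus and 2.05, 2.21 and 2.14 in cortex and was not called (-0.112, adjusted p = 0.0904). It was called lower with quantile normalization (-0.137) and without cortex array 1 (-0.154).

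The tissue labels could be checked on few region markers. Of 66 hippocampal marker genes 12 had probes in the rows used, and 3 were expressed, on 4 probes. None of these was higher in hippocampus: Calb1, which marks granule cells and many pyramidal cells and interneurons, was lower on 1 probe, at 0.129, -0.108 and 0.0114 against 0.573, 0.518 and 0.52 (-0.526), and at -0.0587 on another, while Ncald (-0.0287) and Plk5 (-0.0413) were not called. The same Calb1 probes were all that was expressed of the interneuron genes. Without the filter on expression, 3 probes of the hippocampal marker list were higher and 4 lower. The hippocampal markers Lct (0.109 in hippocampus, -0.289 in cortex), Grik1 (0.0657 and -0.225) and Nectin3 (-0.148 and -0.408) had higher means in hippocampus but averaged below 0 over both regions and so did not count as expressed, and the other 2 Calb1 probes, dimmer still, had lower means in hippocampus. Kcnd2 (-0.0854 and 0.0826) and Pdzd2 (-1.62 and -1.48) of the same list also had lower means in hippocampus without counting as expressed. Of 61 neocortical marker genes 9 had probes and 4 were expressed; Nefl was higher in hippocampus and Trib2 lower, at 0.0225, -0.0507 and -0.106 against 0.643, 0.498 and 0.361. Among neocortical markers that did not count as expressed, Kitl (0.157 in hippocampus and -0.174 in cortex) and Foxp2 (-0.265 and -0.481) had higher means in hippocampus, and Ngb (-1.29 and -1.1) a lower one. Markers of each region thus ran both ways, and most were too dim here for a check of the tissue labels.

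Markers of neighbouring tissue were few. None of the 4 thalamic genes with probes was expressed. Of the striatal genes, Foxp1 was lower (-0.134) with overlapping arrays and missed the test without hippocampus array 1 or cortex array 1 or 2 (-0.0939 to -0.121), and Strn was at 0.12. The 3 expressed choroid plexus probes were for Igf2 (0.0978, not called) and Ezr, lower on 1 probe (-0.26) and at 0.131 on the other. The other choroid plexus genes with probes did not count as expressed, and all had higher means in hippocampus. They were Slc4a2 (0.0394 in hippocampus and -0.106 in cortex), Cab39l (0.0216 and -0.125) and Calml4 (-0.657 and -0.853). Transthyretin, which defines this tissue, was not analysed here. Meningeal and fibroblast genes had 2 of 14 probes higher (14.3%, near the 14.8% of all expressed probes). They were Aldh1a2 (0.184, not called without hippocampus array 2 (0.144)) and Col1a1 (0.159, not called without hippocampus array 1 or cortex array 1 (0.0943 to 0.139)). Mean Z over the list was 0.799, 0.796 and 0.792 in hippocampus and 0.759, 0.802 and 0.775 in cortex, which overlapped. Blood and vessel genes had 17 probes, 14 of them for the alpha globins Hba-a1 and Hba-a2, where Hba-a1 was lower on 1 probe (-0.214) and between -0.114 and 0.0486 on its other 10; the smooth muscle actin gene Acta2 was higher, at 0.429, 0.482 and 0.473 against 0.18, 0.303 and 0.0558 (0.282 ± 0.0481).

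Astrocyte genes had 3 probes higher and 1 lower of 8 (50% called). Of all expressed probes 14.8% were higher and 15.8% lower (30.6% called). Mean Z over the astrocyte list was 0.597, 0.646 and 0.623 in the hippocampus arrays and 0.538, 0.542 and 0.587 in the cortex arrays. The higher genes beside Cst3 were Agt (0.151) and Timp4 (0.12), and Sparc was lower. Agt missed the test without hippocampus array 2 or 3 or cortex array 3 (0.0963 to 0.142) and Timp4 without hippocampus array 1 or 3 or cortex array 2 (0.0946 to 0.126). Astrocyte genes that did not count as expressed were not higher as a group. Clu (-0.876 in hippocampus and -0.737 in cortex), Gpm6b (-0.62 and -0.514) and Id3 (-0.446 and -0.363) had lower means in hippocampus. Slc1a3 (-0.512 and -0.506) and Hapln1 (-1.576 and -1.584) were nearly equal. Of 5 myelin and oligodendrocyte probes (40% called) Cryab and Gatm (0.199) were higher, and 3 had a positive difference. The list mean, which includes Cryab (0.409), was 0.738, 0.651 and 0.683 against 0.574, 0.578 and 0.579. Gatm, which makes the precursor of creatine, was at 0.408, 0.441 and 0.413 against 0.167, 0.212 and 0.285. Of 5 microglial probes (60% called) the protease gene Ctsd was higher (0.175) and Fcer1g lower by far. The complement gene C1qc was lower (-0.12) but not called without hippocampus array 1 or cortex array 3 (-0.097 to -0.0999). The list mean, which includes Fcer1g (-0.824), was 0.152, 0.158 and 0.193 against 0.271, 0.357 and 0.321. A positive difference was seen in 2 of the 5 probes. The complement genes of the same cells did not run together: C1qb was at -0.077 and was not called, and C1qa, which did not count as expressed, averaged 0.00389 in hippocampus and -0.35 in cortex. Of 16 probes for neurogenesis and the cell cycle 2 were higher (Cdk4, 0.185, and Vim) and 2 lower (25% called, against 30.6% of all expressed probes). Bub1b, a mitotic checkpoint kinase, was at 0.171, 0.00268 and 0.173 against 0.505, 0.514 and 0.561 (-0.411 ± 0.0685, adjusted p = 3.24e-05). Ccnd2 (-0.136) was at 0.0069 with the running median removed and missed the test without cortex array 3 (-0.108). The part of other cell types in the differences above was not tested.

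Probes of the same gene could disagree. Of 161 genes with more than 1 expressed probe, 88 had a called probe; 12 had at least 2 probes called in 1 direction and 6 had probes called in both. These 6, chosen for that count, were Eef1g, Gstm1, H19, Smarcb1, Stau1 and Zfand6. H19, an imprinted noncoding RNA, differed by 0.303 on 1 probe and -0.158 on another, and Zfand6 by 0.179 and -0.54. In Zfand6 the lower probe stood at -0.0333, 0.0888 and 0.103 in hippocampus and 0.585, 0.582 and 0.611 in cortex, and the higher one, a brighter spot, at 1.54, 1.55 and 1.59 in hippocampus and 1.3, 1.46 and 1.38 in cortex. Further named genes with a second probe that was not called were Cdk4 (-0.0782), Marcks (-0.0289), Rasa1 (-0.0157), Ube2s (0.0811), Usp10 (0.0412), Smarca5 (-0.00437), Mrps17 (0.016) and Ctsd (0.102). Ccnd2, Tkt, Rps21 and Col18a1 had 2 such probes each, between -0.111 and 0.0504, and Eef1g had 3 beside those called in each direction. These clones are cDNA fragments, and which part of a transcript each one holds is not given in the sources used here.

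The differences also varied with row order and with brightness. When the rows were cut into 22 blocks of 384 consecutive probes, the median difference of the expressed probes ran from -0.101 in the first block, with 3 called higher and 46 lower, to 0.0652 in block 15, with 45 higher and 15 lower. Each of blocks 17 to 22 had more probes lower than higher, and each of blocks 14 to 16 more higher than lower. Fcer1g, Rnf145 and Nudcd2 lie in the first block, and Agtrap in the second. With a running median over 201 probes removed from each array, all 30 genes with the most extreme differences kept their calls and directions, and 33 of 151 named calls did not. Those not given above were Agt, C1qc, Cdk4, Col1a1, Cox7a2, Csnk1d, the Eef1g probe called lower, Eif4g2, Hsd17b10, Psmd7, Ptger2, Slc27a4 and Usp10. COX-2 Hetero mice had a similar course at the ends, with medians of -0.0826 in the first block and -0.0961 in the last, and no block of the other 3 genotypes had a median under -0.053. When the expressed probes were cut into 5 groups of equal size by mean Z, 38.7% of the dimmest group were called, against 19.7% of the brightest. The part of membrane position or brightness in single genes was not tested.

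**Figure D5:**
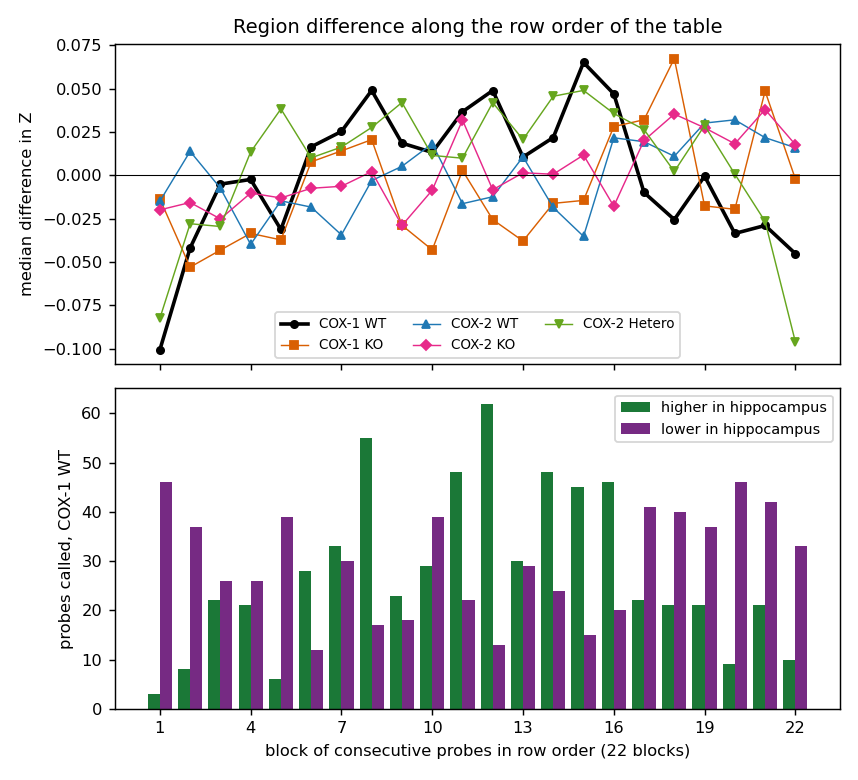
Median hippocampus minus cortex difference of the expressed probes in 22 consecutive blocks of the row order (upper panel, difference in Z, 1 line for each genotype) and the number of probes called in each block in COX-1 WT mice (lower panel, bars for each direction). The COX-1 WT line is lowest in the first block (-0.101) and highest in block 15 (0.0652), and the lower panel shows 46 probes called lower and 3 higher in the first block.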

How the data were processed

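Total RNA (5 µg) of each region was labelled with 33P by reverse transcription, hybridised to nylon membranes carrying mouse cDNA clones and read on a phosphorimager. The values deposited by the authors are Z scores: the raw intensity of each spot, taken from the image with ArrayPro, was converted to its natural log, the mean of the array was subtracted and the result was divided by the array's SD. Spot intensities and depth were not analysed here, and the precision is limited by 3 arrays per group. Samples were grouped by tissue and genotype as labelled. The first 8448 rows, where 5 cortex arrays of the COX-1 line share identical values, were left out.

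A model with 1 mean for each of the 10 groups was fitted to all 30 arrays (limma 3.58.1, R 4.3.3). Hippocampus was compared with cortex within COX-1 WT for the 4127 probes whose Z averaged above 0 in those 6 arrays, at a Benjamini-Hochberg adjusted p under 0.05. An exact permutation test of 3 against 3 arrays cannot give a p below 0.1 and was not used. The study's rule of mean Z, Z test and z ratio was applied beside it, both as printed in its methods and with the z ratio taken over the SD of all differences. The same model gave the region difference of each other genotype and the difference between the COX-1 and COX-2 wild-type groups. Symbols came from the platform annotation, and probes with several symbols or none were counted but not named. The fit was first tested on simulated data.

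Named genes were, among called probes with 1 symbol and no overlap, the 15 highest and 15 lowest differences, then up to 4 called members of each gene list in each direction, and where fewer than 2 passed, up to 2 members with the highest mean Z. Genes that the study measured by quantitative PCR were added. Members, gene lists and tests were chosen with earlier results of these data known. From lists matched by symbol patterns, Rhox6, Hspg2, Psme3ip1, Psmc3ip, Eif2ak1 and Eif2ak4 were dropped as members of other families. Alternatives changed the arrays in the fit, a replicate block, the filter on mean Z, the scaling, a running median in row order, the variance trend and the study's rule, and left out each array in turn. The columns of all 30 arrays were used. Figures were drawn with matplotlib 3.10.9.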

Additional observations from a re-analysis of the deposited data

Results flagged for a closer look

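The region difference itself differed between the wild-type mice of the COX-1 and COX-2 lines for 38 of 148 named genes tested, beside 259 of 4120 probes in all (6.29%; limma, adjusted p of the difference from 0.00116 to 0.0448). The named genes were chosen for their COX-1 WT difference, which favours a gap from the COX-2 line. Each value that follows is the hippocampus minus cortex difference of COX-1 WT mice minus that of COX-2 WT mice, in Z, on 1 probe of the gene. Another expressed probe had the opposite sign and was not called for Zfand6 (0.182), Camk1d (0.109) and Sptbn1 (-0.109). The 2 lines were bred apart, and hybridisation batch is not labelled, so line and batch cannot be told apart.

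In 23 genes it was negative, meaning that hippocampus was lower relative to cortex in the COX-1 line than in the COX-2 line. Among genes of signalling, adhesion and the cytoskeleton these were Fcer1g (-0.746), Mapk13 (-0.731), Agtrap (-0.544), Mtor (-0.417), Rab11a (-0.41), Ctnnd1 (-0.382), Macf1 (-0.269), Camk1d (-0.256) and Ezr (-0.255). Among genes of the nucleus, RNA and chromosomes these were Tiparp (-0.687), Ddx24 (-0.679), Srsf10 (-0.365), Nipbl (-0.362), Eif4a1 (-0.329), Bub1b (-0.315) and Taf1a (-0.306). Among genes of energy metabolism and protein turnover these were Zfand6 (-0.586), Ndufa10 (-0.463), Pfkm (-0.421), Atp5mpl (-0.41), Psmb5 (-0.355), Fbxw5 (-0.318) and Sumo2 (-0.314). 

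In 15 genes it was positive. Among genes of the cytoskeleton and neurons these were Cryab (0.319), Sptbn1 (0.291), Nefl (0.249), Olfm1 (0.249) and Ppp1r9b (0.195). Among genes of transcription, chromatin and splicing these were Zfp277 (0.444), Gtf2f2 (0.313), Hdgf (0.306), Hdac2 (0.268) and Rbm39 (0.201). Setd3 (0.271), on the chromatin list by symbol pattern alone, was positive too. Among genes of mitochondria, metabolism and protein turnover these were Mrpl4 (0.477), Vwa8 (0.343), Galt (0.337) and Psmd10 (0.253).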

How the results depend on the processing

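The 1263 calls between hippocampus and cortex stayed within 1.5 times that count with the 6 arrays fitted alone (864), median centring (1261), quantile normalization (1261), a running median in row order removed (1365), a variance trend (1258) and, chosen after seeing the data, cyclic loess (1273). By construction fewer or more probes entered other settings: 2639 calls were made with no filter, 538 with a mean Z above 0.5 and 709 with the probes of a gene averaged, the last chosen after seeing the data. The study's rule, with the z ratio taken over the SD of all differences, picked 289 probes, 837 with no filter and 98 with a mean Z above 0.5; with the SD of an array, as the methods print it, it picked 0, since no difference in Z reaches 1.5. The difference between the lines was called for 259 probes, 611 with no filter and 89 with a mean Z above 0.5. Leaving out 1 array at a time gave 978 to 1163 calls, 238 to 276 by that rule and 137 to 329 for the difference between the lines. Why 1 array moves the last count so far was not tested.

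With the replicate number as a block, 1347 probes were called, 671 higher and 676 lower, and 305 for the difference between the lines. Deviations of same-numbered hippocampus and cortex arrays correlated at 0.189, 0.0828 and -0.0155 over probes, and 1 of 3 hippocampus arrays correlated best with its own number, so the numbers were not taken to pair the samples. Of 151 named calls, the block ended 1, the 6 arrays alone 18, median centring 8, quantile normalization 4 and cyclic loess 1. The running median ended 32 and turned the sign of Ccnd2 to 0.0069, and the cause was not tested. Some probes that were named but not called passed in other settings, namely a Calb1 probe, an Ezr probe, Strn, Ppp1r9b, Slc6a13 and Cltb. The 15 highest and 15 lowest genes kept their direction and call in every setting in which their probes were tested. Signal over background could not be assessed from Z scores.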

Other observations

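Further genes were called in at least 3 of the 5 genotypes, and they are named after their values were seen. In the cyclic AMP pathway, Prkaca, the catalytic subunit of protein kinase A, was lower in hippocampus of COX-1 WT mice (-0.152 ± 0.0488, adjusted p = 0.0177, limma), with differences of -0.185, -0.112, -0.121 and -0.197 in COX-1 KO, COX-2 WT, COX-2 KO and COX-2 Hetero mice. Akap11, which anchors that kinase, was at -0.261, -0.361, -0.0646, -0.143 and -0.261 in the same order, starting with COX-1 WT. Both were lower in hippocampus in all 5 genotypes, and neither passed the test in COX-2 WT or COX-2 KO mice.

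On the higher side, Smc4, a core subunit of condensin, was at 0.209 in COX-1 WT mice and at 0.277, 0.249, 0.159 and 0.00926 in the others. The ribosomal protein gene Rpl4 was at 0.168, 0.251, 0.186, 0.052 and 0.102, and the smooth muscle actin gene Acta2 at 0.282, 0.371, 0.276, 0.159 and 0.0788. All 3 were positive throughout, with their lowest values in COX-2 KO or COX-2 Hetero mice.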
